A study of Homo sapiens with 40 samples.

Results

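The B cell receptor signals through a chain of cytoplasmic kinases and adaptors, and 10 genes of that chain are described here: SYK, LYN, BTK, BLNK, PLCG2, PRKCB, INPP5D, PTPN6, VAV1 and PIK3CD. Members were the probes whose symbol in the probe-to-gene table was 1 of these names. They were 66 of the 15246 probes of the array, and all 10 genes were found among the 4604 named genes. PRKCB had 16 probes, SYK 9, BTK 7, INPP5D 7, LYN 6, PLCG2 6, BLNK 5, PTPN6 4, PIK3CD 3 and VAV1 3.

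The study silenced CASP10, which encodes the protease caspase-10, in human myeloma lines and set human diffuse large B-cell lymphoma lines beside them. All lines carried a retroviral shRNA that 20 ng/ml doxycycline switched on, and each 2-colour array set Cy5-labelled RNA of induced cells against Cy3-labelled RNA of that line's uninduced cells from the matching day. Myeloma lines SKMM1 (shCasp10-2, 12 arrays in 3 repeats), H929 (shCasp10-2, 8 arrays in 2 repeats, and shCasp10-3, 4 arrays) and KMS12 (shCasp10-2 and shCasp10-3, 4 arrays each) gave 32 arrays of 8 time courses between days 1 and 5. In 1 further SKMM1 course of 4 arrays, on days 1 to 4, shCasp10-2 cells under doxycycline were set against doxycycline-treated cells with shCtrl, a control shRNA. The lymphoma lines OCI-Ly7 and OCI-Ly19 carried shCasp10-2 and had 2 arrays each, on days 3 and 4. The day 1 and day 5 arrays of SKMM1 and of H929 with shCasp10-2 have no repeat number that fits their course, and they entered no test. They are named here with the course whose experiment numbers neighbour theirs, so the SKMM1 day 5 arrays titled repeat 1 and repeat 2 stand with repeats 2 and 3. The uninduced cells carried the vector but saw no doxycycline, so that outside the control shRNA course the hairpin and the drug cannot be told apart. Whether a line was a single clone is not given in the sources used here.

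In B cells, the kinase LYN phosphorylates the tails of the receptor and SYK binds there and is activated. SYK then phosphorylates the adaptor BLNK, which brings BTK to the phospholipase PLCG2, while PIK3CD makes the membrane lipid that recruits BTK. PRKCB, a protein kinase C, carries the signal from the products of PLCG2 to NF-kappaB, and the phosphatases PTPN6 (SHP-1, on proteins) and INPP5D (SHIP1, on the lipid) restrain it. Plasma cells, from which myeloma arises, keep less of this pathway than mature B cells do.

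Values are the log ratios that the authors deposited, induced over uninduced cells, read as log2. A value above 0 is taken as higher in induced cells, a direction that is likely but not stated. A ratio within a line carries no level, so neither the lines' levels of these genes nor their cell type markers could be compared, and in such bulk RNA fewer cells with a transcript and less transcript per cell cannot be told apart.

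SYK, BTK, PRKCB and PIK3CD went together over the myeloma arrays, as did some other members and genes outside the pathway, described further on. Whether they share regulation was not tested. The bases before the transcription starts were searched to show what regulatory sequence they hold. In RefSeq's promoter table for GRCh38.p14, the 250 bases before each start were searched on both strands for a PU box (GAGGAA), the core that the B cell and myeloid factor PU.1 binds, and for the octamer (ATGCAAAT), bound by OCT1 and OCT2. Of the 35116 windows searched, 23.6% held a PU box and 1.63% an octamer. LYN was left out of this search, so the counts do not cover it and say nothing on its promoter. Among 15 windows of the other 9 members, 5 held a PU box, in 4 genes, and 1 held an octamer. The 3 windows of PIK3CD held neither. The first listed window with a match is printed 5′ to 3′ for each, with the match in capitals.
SYK, chr9:90801569-90801818, plus strand: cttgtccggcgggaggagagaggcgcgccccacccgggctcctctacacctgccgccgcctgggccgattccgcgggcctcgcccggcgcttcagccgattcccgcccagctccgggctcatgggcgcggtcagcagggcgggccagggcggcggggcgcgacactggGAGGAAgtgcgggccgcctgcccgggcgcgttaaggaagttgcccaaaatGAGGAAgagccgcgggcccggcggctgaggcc
BTK, chrX:101390797-101391046, minus strand: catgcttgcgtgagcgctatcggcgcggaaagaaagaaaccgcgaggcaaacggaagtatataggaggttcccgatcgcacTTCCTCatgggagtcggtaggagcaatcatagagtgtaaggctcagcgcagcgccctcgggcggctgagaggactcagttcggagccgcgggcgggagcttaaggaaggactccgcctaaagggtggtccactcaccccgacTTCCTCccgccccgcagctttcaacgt
PRKCB, chr16:23835733-23835982, plus strand: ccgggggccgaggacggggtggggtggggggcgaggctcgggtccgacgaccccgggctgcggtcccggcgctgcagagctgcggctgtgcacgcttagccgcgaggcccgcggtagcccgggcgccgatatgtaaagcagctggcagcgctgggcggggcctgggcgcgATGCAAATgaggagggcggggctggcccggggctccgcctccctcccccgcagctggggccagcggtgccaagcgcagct
The SYK window held the PU box 82 and 32 bases before the start, the BTK window held it on the opposite strand (TTCCTC) at 169 and 27 bases, and the PRKCB window held the octamer at 80 bases. SYK and BTK have other listed starts, and a match describes these letters only.

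The spread of the arrays bears on every value that follows. On 12 of the 40 arrays over 10% of all probes lay beyond a log ratio of 3 in size, and these are called wide. They were all 4 arrays of SKMM1 repeat 2, day 4 of SKMM1 repeat 3, 6 early arrays of H929 and KMS12, and day 3 of OCI-Ly7. SKMM1 repeat 2 ran against its sister repeats: over all probes, Pearson's r between its arrays and those of repeat 3 was between -0.52 and -0.16 in 16 pairs, 11 of them below -0.3. The dyes are labelled alike on all of them, so the direction of repeat 2 is not settled, and results are also given with its sign turned. CASP10, the target, was below 0 on 29 of 32 myeloma arrays, with a median of -0.36 and a range of -5.60 to 0.35. It was -2.82, -1.19, -0.84 and -0.90 on days 2 to 5 of SKMM1 repeat 2, below 0 as deposited, and with that repeat turned it was below 0 on 25 of 32. On days 2 to 5 of SKMM1 repeat 3 it was -0.02, -0.30, 0.35 and -0.17. On days 2 to 4 of SKMM1 repeat 1 it was -0.51, -0.25 and -0.32. On the arrays labelled OCI-Ly7 it was 2.04 on day 3 and also above 0 on day 4, and on those of OCI-Ly19 it was 0.12 and -0.24.

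The members lay far below 0 on most wide myeloma arrays and closer to 0 on the others. The median of the 10 genes was below 0 on 10 of the 11 wide myeloma arrays, with a median over these arrays of -1.91 and a range of -3.47 to 0.48. The median of all features was below 0 on the same 10 arrays, from -2.68 to -0.30, and 0.42 on the other. With SKMM1 repeat 2 turned the members' median was below 0 on 6 of 11, and without that repeat on 6 of 7. On the 21 myeloma arrays that were not wide it was below 0 on 8, with a median of 0.03 and a range of -1.19 to 0.81. It ranged from -0.06 to 0.38 on the 4 arrays against the control shRNA and from -0.11 to 0.70 on the 4 lymphoma arrays. All 10 genes were below 0 on 6 of the 40 arrays: day 1 of SKMM1 repeat 1, days 1, 2 and 3 of H929 repeat 1, and days 1 and 2 of KMS12 with shCasp10-2. All 10 were above 0 on 1 array, day 4 of H929 with shCasp10-3.

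**Figure D1:**
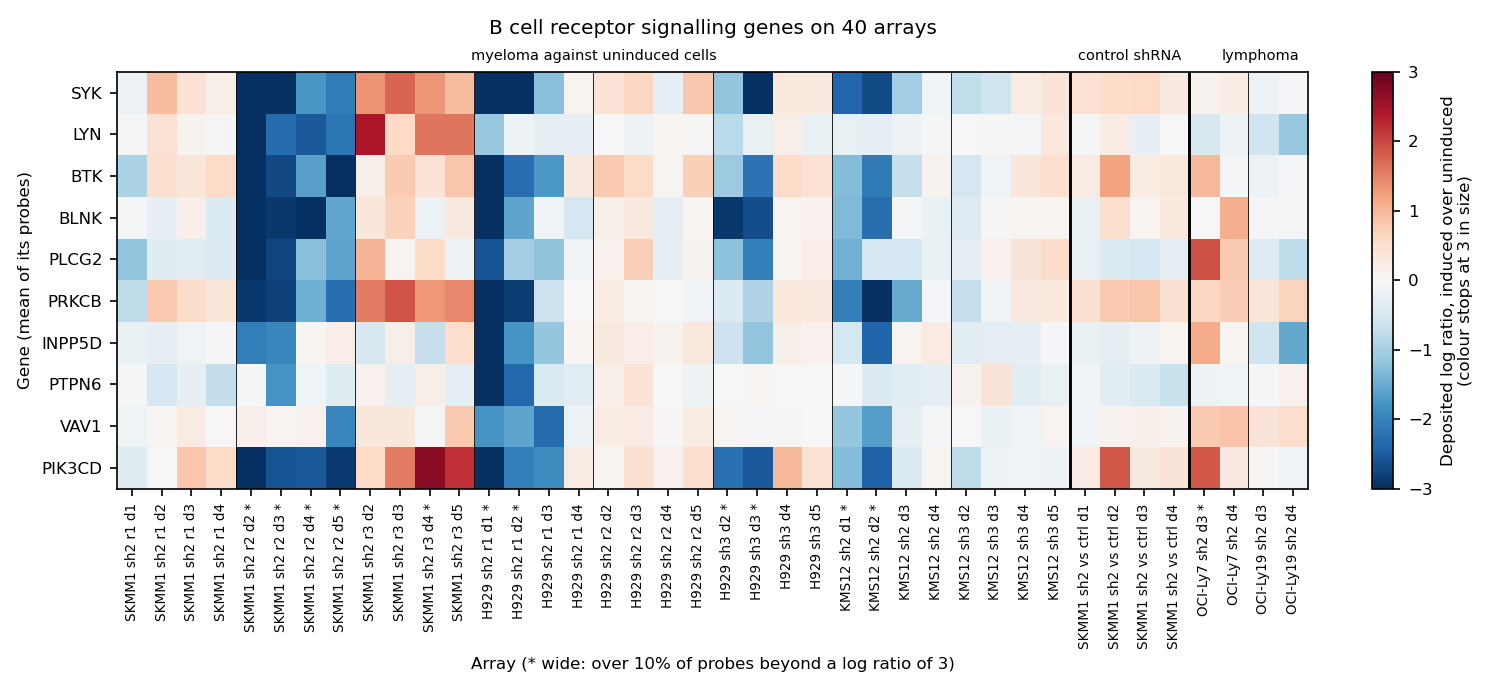
Deposited log ratio of each member (rows, mean of its probes) on each of the 40 arrays (columns), with myeloma left, the control shRNA course next and lymphoma right; sh2 and sh3 are shCasp10-2 and shCasp10-3, r is the repeat, d the day, and an asterisk marks a wide array. The colour stops at 3 in size. Most members (6 or more) lie below -1 on 9 of the 12 wide arrays and on 1 array that is not wide, day 3 of H929 repeat 1. On these arrays the median of all features lay between -2.68 and -0.14.

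Whether these genes respond to CASP10 knockdown in myeloma was tested on the means of days 2 to 4 of each course, with the 3 lines weighted equally. All 10 estimates were below 0, but so were 81.3% of all features, and no member passed. SYK had a mean of -0.70 (SE 0.56), BLNK -0.77 (SE 0.44), PIK3CD -0.68 (SE 0.64), BTK -0.55 (SE 0.43), INPP5D -0.51 (SE 0.20) and PLCG2 -0.49 (SE 0.35), over 8 courses. PRKCB followed at -0.46 (SE 0.46), LYN at -0.30 (SE 0.54), PTPN6 at -0.26 (SE 0.18) and VAV1 at -0.21 (SE 0.20). The median of the members was -0.50, against -0.27 over all 9681 features. In the limma fit 0 of 10 members and 0% of all features passed after Benjamini-Hochberg adjustment (smallest adjusted p = 0.682), while 467 features, 1 of them a member (INPP5D), had an unadjusted p under 0.05.

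SKMM1 repeat 2, all of whose arrays were wide, was as deposited the lowest of the 8 courses for all members but PTPN6 and VAV1. Turned, it would be the highest for all but VAV1. The mean of SYK over days 2 to 4 was -3.33 in SKMM1 repeat 2, against 0.51 and 1.48 in SKMM1 repeats 1 and 3. LYN was -3.56 in repeat 2, against 0.16 and 1.54 in the other SKMM1 repeats, and between -0.29 and -0.0014 in the 5 courses of H929 and KMS12. PIK3CD was -4.04 in repeat 2, against 0.47 and 1.61 in repeats 1 and 3. VAV1 was 0.12 in repeat 2. Without the wide arrays, on course means of 7 courses, SYK had a mean of 0.18 (SE 0.18), LYN 0.25 (SE 0.17), PRKCB 0.23 (SE 0.17), PIK3CD 0.21 (SE 0.22), BTK 0.13 (SE 0.18) and BLNK 0.0033 (SE 0.11). PLCG2 was below 0 at -0.06 (SE 0.17), INPP5D at -0.09 (SE 0.13), PTPN6 at -0.16 (SE 0.11) and VAV1 at -0.09 (SE 0.19). None of these passed either (highest of their limma adjusted p = 0.993, lowest 0.511). With the sign of repeat 2 turned and all arrays kept, SYK was 0.042, BTK 0.053, PLCG2 0.045, PRKCB 0.064, PIK3CD 0.22 and LYN 0.50, with no call.

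**Figure D2:**
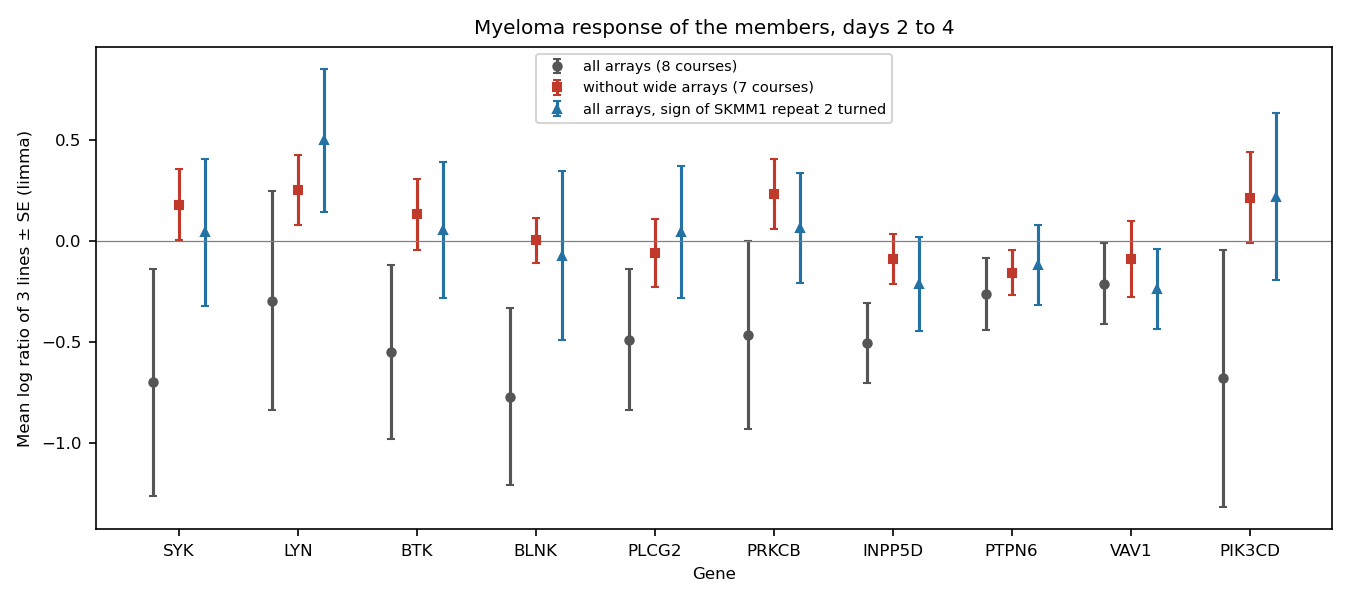
Mean log ratio of the 3 myeloma lines over days 2 to 4 with its SE (vertical axis) for each member (horizontal axis), from limma fits of all arrays, without the wide arrays, and with the sign of SKMM1 repeat 2 turned. All 10 grey points lie below 0 and the red points between -0.16 and 0.25, and 6 members have a different sign with and without the wide arrays.

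When single arrays that were not wide were fitted with the course as a random block (16 arrays of days 2 to 4), 4.57% of features passed in the myeloma response, and 0 of the 10 members. The share depended on single courses: with 1 course left out it was between 0%, without KMS12 shCasp10-2, and 8.16%, without SKMM1 repeat 3, and on course means it was 0%. PTPN6 came nearest among the members at -0.15 (SE 0.09, limma adjusted p = 0.371). By probe, 2 of the 66 member probes passed, both lower, beside 5.84% of all probes: a LYN probe at -0.36 (SE 0.08, adjusted p = 0.0240) and an INPP5D probe at -0.31 (SE 0.08, adjusted p = 0.0314). The mean of all 6 LYN probes in the same fit was 0.22, so this LYN probe and the mean of its gene were on opposite sides of 0.

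Among the myeloma lines, PRKCB stood highest in SKMM1 on the arrays that were not wide. On the 5 SKMM1 arrays of days 2 to 4 that were not wide, PRKCB was 0.79, 0.55 and 0.36 in repeat 1 and 1.54 and 1.89 in repeat 3. On the 6 such H929 arrays it ranged from -0.61 to 0.31 with a median of 0.03, and on the 5 KMS12 arrays from -1.50 to 0.26 with a median of -0.10. All 5 SKMM1 values were above all H929 and KMS12 values. The share of all features that separate like this was not counted. In the fit of these single arrays the median of all features was 0.14 in SKMM1, -0.04 in H929 and -0.10 in KMS12. Nothing was called in H929 or KMS12, and the differences among the 3 lines did not pass for PRKCB (limma F-test, adjusted p = 0.160) or SYK (adjusted p = 0.194), so no member is shown to differ between the lines.

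Within SKMM1, PRKCB was the 1 member that passed, at 1.08 (SE 0.29, limma adjusted p = 0.0331), beside 11.7% of all features. Without repeat 3 the estimate was 0.57 (adjusted p = 0.399), and without repeat 1 it was 1.72 (adjusted p = 0.00827). The call was also lost, at an estimate of 1.07 or 1.08, without H929 repeat 2 (adjusted p = 0.0533) or KMS12 with shCasp10-3 (adjusted p = 0.0545), courses that enter the estimate of the spread. Course means gave 1.14 (adjusted p = 0.172) and arrays scaled to a common spread 0.97 (adjusted p = 0.111), neither past the threshold. With the sign of repeat 3 turned it was -0.49, and with the wide arrays kept -0.078, both without a call. The share of probes beyond 3 was between 5.52% and 14.7% on the arrays of repeat 3 and at most 0.315% on days 2 to 4 of repeat 1, and its part in the result was not tested. CASP10 was -0.02 and -0.30 on the repeat 3 arrays of this fit, and -0.51, -0.25 and -0.32 on those of repeat 1. The part of CASP10 was not tested either.

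SYK, the kinase at the receptor, came next to PRKCB, short of the threshold. On the same SKMM1 arrays it was 0.92, 0.43 and 0.18 in repeat 1 and 1.35 and 1.76 in repeat 3, with an estimate of 0.97 (SE 0.32, limma adjusted p = 0.0583). It passed without H929 repeat 1 (0.97, adjusted p = 0.0446) and without SKMM1 repeat 1 (1.55, adjusted p = 0.0255). LYN passed without SKMM1 repeat 1 (1.52, adjusted p = 0.00801). BTK was 0.47, 0.35 and 0.60 in repeat 1 and 0.17 and 0.79 in repeat 3, with an estimate of 0.48 (SE 0.34). PIK3CD was 0.01, 0.84 and 0.56 in repeat 1 and 0.59 and 1.53 in repeat 3, with an estimate of 0.73 (SE 0.37). These 4 genes, SYK, BTK, PRKCB and PIK3CD, were above 0 on all 5 arrays, where 28.4% of all features were, and 0 members were below 0 on all 5, where 10.7% of all features were. LYN was 0.42, 0.12 and -0.06 in repeat 1 and 2.42 and 0.61 in repeat 3 (estimate 0.76, SE 0.29, limma adjusted p = 0.0838). The phosphatase PTPN6 ran the other way in repeat 1, at -0.51, -0.24 and -0.71, and was 0.12 and -0.30 in repeat 3 (estimate -0.31, SE 0.17). PLCG2 was -0.37, -0.32 and -0.41 in repeat 1 and 1.03 and 0.08 in repeat 3.

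Against the control shRNA, where both channels held doxycycline-treated SKMM1 cells, 4 members were above 0 on all 4 arrays and 2 below. Values of this course are single arrays with no replicate and no test, and its Cy5 RNA may be that of repeat 1, which the labels do not settle. PRKCB was 0.47, 0.77, 0.84 and 0.47 on days 1 to 4. SYK was 0.44, 0.54, 0.59 and 0.29, and BTK 0.24, 1.20, 0.21 and 0.32. PIK3CD was 0.24, 1.86, 0.28 and 0.40, highest on day 2. These 4 genes were above 0 on all 4 arrays, as were 28% of all features. PTPN6 was -0.09, -0.33, -0.44 and -0.66, and PLCG2 -0.22, -0.40, -0.53 and -0.28, both below 0 on all 4, as were 22.5% of all features. In the SKMM1 arrays against uninduced cells PLCG2 lay on both sides of 0. LYN between -0.24 and 0.23, INPP5D between -0.30 and 0.07, VAV1 between -0.07 and 0.15 and BLNK between -0.23 and 0.54 were on both sides of 0.

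Probe by probe, PRKCB, SYK, PIK3CD and PTPN6 each lay on 1 side of 0 over the 5 narrower SKMM1 arrays of days 2 to 4. The share of all genes whose probes do so was not counted. In the single-array fit of SKMM1, 39.5% of all features were below 0. The 16 PRKCB probes all had a mean above 0 over the 5 narrower SKMM1 arrays of days 2 to 4, from 0.09 to 2.68 with a median of 0.69. In repeat 1 alone, with no wide array, the 16 probes were also all above 0, from 0.21 to 1.03. Against the control shRNA 14 of 16 were above 0, with a median of 0.71, and on the lymphoma arrays 14 of 16, with a median of 0.61. All 9 SYK probes (0.08 to 1.98) and all 3 PIK3CD probes (0.56 to 0.92) were above 0 on the 5 SKMM1 arrays, and all 4 PTPN6 probes were below 0 (-0.44 to -0.17). In repeat 1 alone 7 of 9 SYK and 3 of 3 PIK3CD probes were above 0, and against the control shRNA 7 of 9 and 2 of 3. With all 12 SKMM1 arrays, 8 of 16 PRKCB, 6 of 9 SYK, 3 of 3 PIK3CD and 3 of 4 PTPN6 probes were below 0. On the 5 narrower arrays the LYN probes split: 4 of 6 were above 0, with means up to 1.88, and the others were at -0.38 and -0.08. PLCG2 had 5 of 6 probes below 0, between -0.71 and -0.23, and 1 at 2.02. INPP5D had 5 of 7 probes below 0, from -0.57, and 2 above 0, up to 0.51. Tested singly, 10 of the 66 member probes passed in SKMM1, 6 of them higher, beside 12.4% of all 15246 probes. The higher ones were 4 PRKCB probes, at 0.69, 1.03, 2.04 and 2.89, 1 LYN probe at 0.85 and 1 SYK probe at 1.09. The lower ones were 2 INPP5D probes at -0.48 and -0.58 and 2 PLCG2 probes at -0.44 and -0.69. Probes of a gene share arrays and may share sequence, so they are not replicates.

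**Figure D3:**
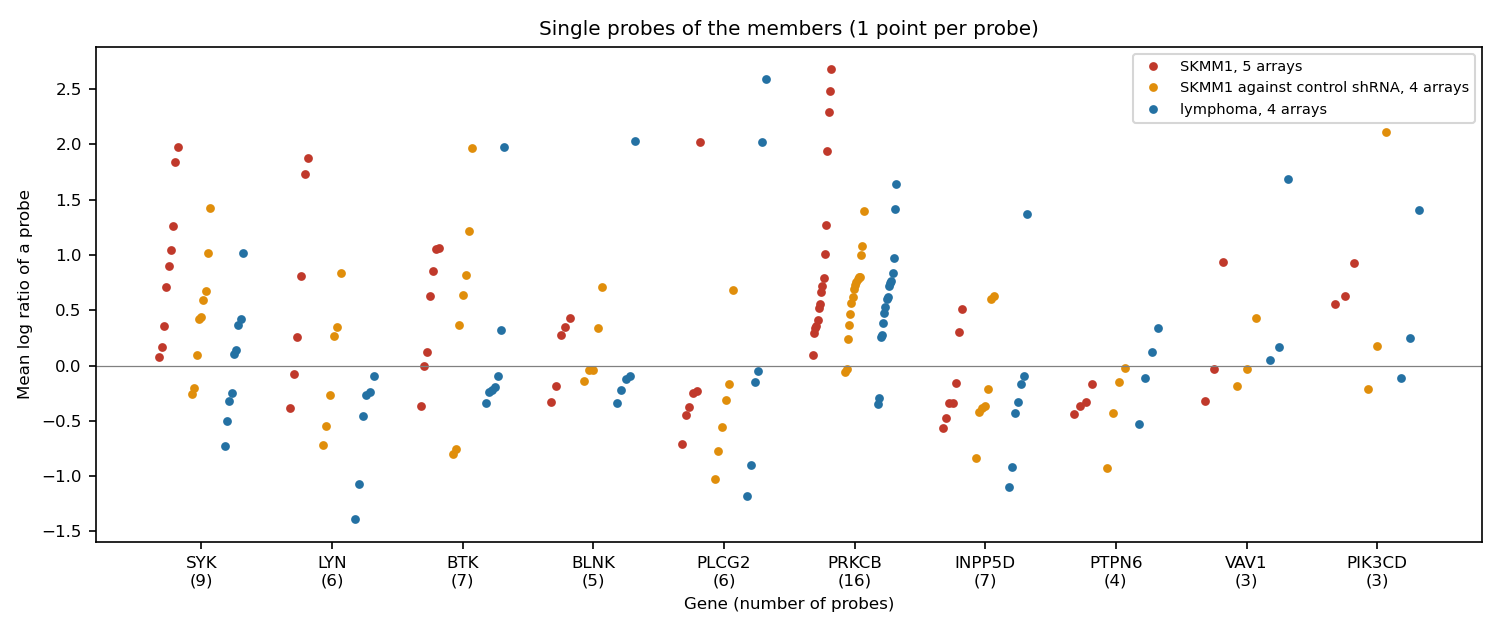
Mean log ratio of each single probe (vertical axis) by gene, with the number of probes in brackets, over 5 SKMM1 arrays of days 2 to 4 that were not wide, 4 SKMM1 arrays against the control shRNA and 4 lymphoma arrays. All 16 PRKCB probes lie above 0 in SKMM1 and 14 of 16 in the other sets, while LYN and PLCG2 probes lie on both sides of 0 in SKMM1.

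Whether myeloma lines respond unlike lymphoma lines was tested on days 3 and 4, which both share. No member passed and every interval held 0. The difference (myeloma minus lymphoma) was -0.80 for PLCG2 (95% interval -2.45 to 0.86), -0.79 for PRKCB (-2.70 to 1.13), -0.77 for VAV1 (-1.63 to 0.09), -0.76 for BLNK (-2.67 to 1.14) and -0.67 for PIK3CD (-3.13 to 1.78). It was -0.49 for SYK (-2.93 to 1.94), -0.46 for BTK (-2.15 to 1.24), -0.18 for PTPN6 (-0.89 to 0.53), -0.02 for INPP5D (-1.11 to 1.07) and 0.39 for LYN (-1.40 to 2.18). In limma 0 of 10 members and 0% of all features passed (smallest adjusted p = 0.639), and 654 features, 0 of them members, had an unadjusted p under 0.05. The median difference was -0.58 over the members and -0.37 over all features, 71.4% of which were below 0. On single arrays without the wide ones 0 members and 0.0103% of features passed. There the difference was 0.62 for LYN (SE 0.23, limma adjusted p = 0.238) and -0.73 for VAV1 (SE 0.49, adjusted p = 0.474). With all arrays and the sign of SKMM1 repeat 2 turned, it was 0.93 for LYN and -0.79 for VAV1, with no call.

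On the lymphoma arrays 3 members lay on the same side of 0 throughout. PRKCB was 0.63 and 0.73 on days 3 and 4 of OCI-Ly7 and 0.36 and 0.68 in OCI-Ly19. VAV1 was 0.78 and 0.84 in OCI-Ly7 and 0.39 and 0.53 in OCI-Ly19. Both were above 0 on all 4 arrays, as were 26.9% of all features. Over the same days the 8 myeloma course means of VAV1 lay between -1.24 and 0.15, all under the lymphoma means of 0.81 and 0.46, while those of PRKCB, from -2.13 to 1.60, spanned the lymphoma means of 0.68 and 0.52. The share of all features that lie apart as VAV1 does was not counted, and the median difference over all features was -0.37. LYN was -0.48 and -0.15 in OCI-Ly7 and -0.60 and -1.13 in OCI-Ly19, the 1 member below 0 on all 4, where 12.3% of all features were. All 6 LYN probes had a lymphoma mean below 0, from -1.39 to -0.10. The 3 VAV1 probes were all above 0 but unequal, at 0.05, 0.17 and 1.69. How many other genes have all probes on 1 side was not counted.

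For other members the lymphoma lines lay apart. INPP5D was 1.12 and 0.05 on days 3 and 4 of OCI-Ly7 and -0.60 and -1.53 in OCI-Ly19. PLCG2 was 1.91 and 0.78 in OCI-Ly7 and -0.38 and -0.76 in OCI-Ly19. PIK3CD was 1.86 and 0.28 in OCI-Ly7 and 0.03 and -0.12 in OCI-Ly19. SYK stayed between -0.18 and 0.22, BTK between -0.18 and 0.97 and PTPN6 between -0.16 and 0.13. BLNK was 1.08 on day 4 of OCI-Ly7 and between -0.051 and 0.0044 on the other 3 arrays. The lines have 1 course each, and their difference was not tested.

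**Figure D4:**
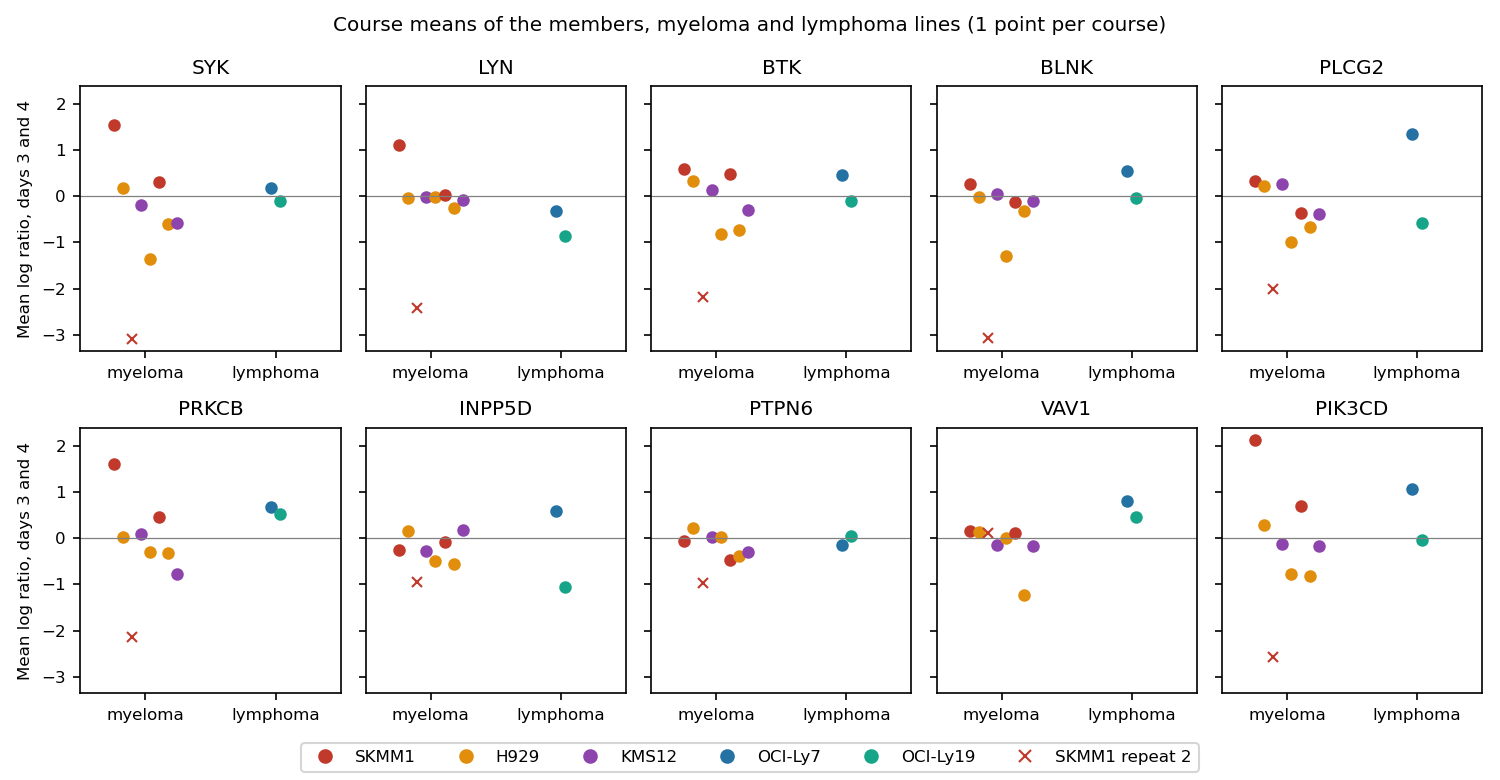
Mean log ratio of days 3 and 4 (vertical axis) of each member in 8 myeloma courses and 2 lymphoma courses, 1 point per course, coloured by line; the cross is SKMM1 repeat 2, whose direction is not settled. VAV1 is the gene whose lymphoma points both lie above all myeloma points, and both LYN lymphoma points lie below all myeloma points but that cross. How many of all features lie apart like this was not counted.

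With time after induction the mean change per day was above 0 for all 10 members, and the median of all features was 0.25 per day. Only PIK3CD rose in all 8 courses. The mean change from day 2 to day 4 was 0.97 per day for PIK3CD (SE 0.28), 0.59 for BTK (SE 0.23), 0.58 for SYK (SE 0.26), 0.55 for PRKCB (SE 0.22) and 0.48 for INPP5D (SE 0.22), on the log ratio scale. PIK3CD had a positive change in 8 of 8 courses, from 0.038 to 2.24 per day, the highest in SKMM1 repeat 2. BTK was positive in 7 of 8 courses and -0.36 per day in H929 repeat 2. INPP5D was positive in 6 of 8, SYK, BLNK, PLCG2 and PRKCB in 5, LYN and PTPN6 in 4 and VAV1 in 2. The share of all features positive in so many courses was not counted, and the mean change of 21.7% of all features was below 0. With the sign of SKMM1 repeat 2 turned, PIK3CD was positive in 7 of 8 and BTK in 6 of 8, and the median of all features was 0.12 per day. PTPN6 had the smallest estimate of the 10, at 0.069 per day (SE 0.15). No feature passed in limma (0 of 9681, smallest adjusted p = 0.399, 1066 at an unadjusted p under 0.05). The early days held most of the wide arrays: SYK in KMS12 with shCasp10-2 was -2.37 and -2.69 on days 1 and 2, both wide, and -1.03 and -0.14 on days 3 and 4. In H929 repeat 1 PRKCB was -4.58 and -2.85 on days 1 and 2, both wide, and -0.61 and -0.01 on days 3 and 4. Without the wide arrays, over 6 courses, the change was 0.70 per day for PIK3CD (SE 0.31), 0.59 for BTK (SE 0.34), 0.43 for PRKCB (SE 0.20) and 0.40 for SYK (SE 0.27), against 0.078 for the median of all features, and LYN, BLNK and PTPN6 were below 0. There 0 features passed (221 at an unadjusted p under 0.05).

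**Figure D5:**
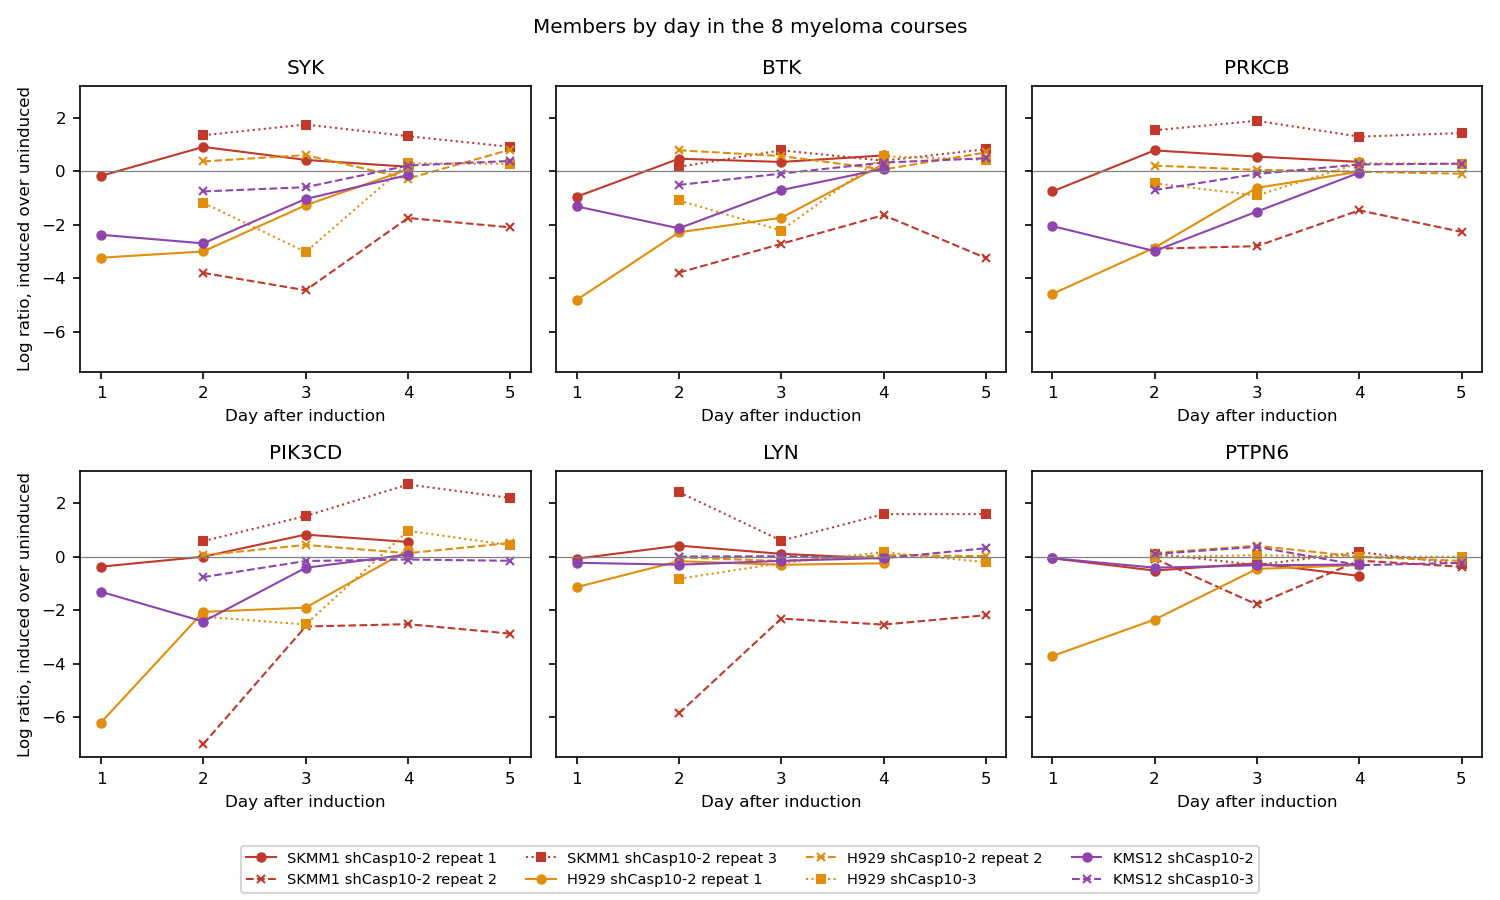
Log ratio (vertical axis) by day after induction (horizontal axis) for 6 members in the 8 myeloma courses, 1 line per course, coloured by cell line. SYK, BTK, PRKCB and PIK3CD are higher on day 4 than on day 2 in H929 repeat 1, H929 with shCasp10-3 and KMS12 with shCasp10-2. In these 3 courses they are near or above 0 by day 4. In SKMM1 repeat 2 they are below 0 on all 4 arrays, day 5 included.

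Some members went together over arrays, after each array's median was subtracted. Over the 21 myeloma arrays that were not wide, Pearson's r was 0.85 for SYK with PRKCB, 0.73 for SYK with BTK, 0.59 for BTK with PRKCB, 0.76 for BTK with VAV1 and 0.76 for BTK with PIK3CD. PIK3CD had an r of 0.72 with SYK and 0.69 with PRKCB. Other members reached such values too. VAV1 was at 0.76 with PIK3CD, 0.70 with INPP5D and 0.60 with SYK, INPP5D at 0.64 with BTK, and LYN at 0.63 with PRKCB. PTPN6 was at -0.33 with PRKCB and -0.26 with SYK, and at 0.40 with PLCG2 and 0.27 with BLNK. The 45 pairs of members had a median r of 0.36 on these arrays and 0.51 on all 32 myeloma arrays, with 15 and 23 pairs above 0.5. The share of all gene pairs above 0.5 was not counted. These arrays share courses and array spread, and the values are descriptions. Between probes of 1 gene the median r on the 21 arrays was 0.38 for PRKCB (120 pairs), 0.10 for SYK (36 pairs), 0.03 for BTK (21 pairs) and -0.10 for BLNK (10 pairs).

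The named genes most like the mean of the members over the 32 myeloma arrays were FCRL1 (r = 0.96), MAP3K1 (0.94), HOXC4 (0.94), ELF3 (0.94) and ALOX5 (0.93). The spread of r over all genes was not described. On the 21 narrower arrays their r with the members was 0.94 for FCRL1, 0.71 for MAP3K1, 0.80 for HOXC4, 0.93 for ELF3 and 0.89 for ALOX5. The 5 genes most like the members on those 21 arrays were HOXB5 (0.95), TGFA (0.95), MCTP2 (0.94), FCRL1 (0.94) and GZMK (0.94), and of these FCRL1 is in the first list.

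Other genes of the pathway gave no call with all arrays. Of 35 measured genes around the receptor, 34 were below 0 in the myeloma response, with a median of -0.44. Of 31 genes downstream of PLCG2 and the small GTPases, 25 were below 0, with a median of -0.17, and of 17 target genes 15, with a median of -0.27. Over all features 81.3% were below 0 in that fit, and the median was -0.27. MAPK3, the ERK1 kinase, had the smallest unadjusted p of the 3 lists, at -0.57 (SE 0.15, limma adjusted p = 0.682), below 0 in 8 of 8 courses. In myeloma minus lymphoma it was -1.16 (SE 0.25, adjusted p = 0.639), with 0 of 2 lymphoma courses below 0. MAP3K7 (TAK1, an activator of NF-kappaB kinases) was 1.12 (SE 0.35) and MYC 1.52 (SE 0.51) in that difference, neither of them a call.

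Without the wide arrays, on single arrays, 1 of 35 receptor-side genes, 3 of 31 downstream genes and 0 of 17 target genes passed in the myeloma response, beside 4.57% of all features. SHC1, an adaptor that links receptors to RAS, was at -0.35 (SE 0.08, limma adjusted p = 0.0300), below 0 in 7 of 7 courses. MAPK3 was at -0.41 (SE 0.08, adjusted p = 0.0201), also below 0 in 7 of 7. SOS1, which loads RAS with GTP, was at 0.37 (SE 0.08, adjusted p = 0.0229), with 1 of 7 courses below 0, and PPP3R1, the regulatory subunit of calcineurin, at 0.28 (SE 0.08, adjusted p = 0.0458), with 2 of 7 below 0. On course means of the same arrays none of the 4 passed, at estimates of -0.35, -0.43, 0.36 and 0.30 in the same order (adjusted p between 0.257 and 0.295), and none passed on single arrays without H929 repeat 1, without KMS12 shCasp10-2 or without KMS12 shCasp10-3.

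In SKMM1 alone, 3 of 35, 6 of 31 and 3 of 17 passed on single arrays, beside 11.7% of all features. EGR3, an immediate early transcription factor, was at 1.84 (SE 0.35, limma adjusted p = 0.0167) and TNFAIP3, an inhibitor of NF-kappaB, at 0.91 (SE 0.22, adjusted p = 0.0242). The GTPase RAC2 was at -0.74 (SE 0.15, adjusted p = 0.0201), NFATC2 at -0.88 (SE 0.20, adjusted p = 0.0223) and REL at 0.71 (SE 0.19, adjusted p = 0.0345). On course means 0 features passed in SKMM1 (smallest adjusted p = 0.172), with 2397 at an unadjusted p under 0.05. Without SKMM1 repeat 3, 0 of 35, 4 of 31 and 0 of 17 passed on single arrays.

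Markers of cell types were set beside the members on the same SKMM1 arrays. Of 14 measured B cell markers, 13 were above 0 with a median of 0.39, against 0.34 for the members and 0.14 for all features, and 1 passed. In that fit 39.5% of all features were below 0 and 11.7% passed. Of 8 plasma cell markers, 7 were below 0 with a median of -0.12, and 0 passed. Of 10 T and NK cell markers, 7 were below 0 with a median of -0.30, and 2 passed, both lower. Of 4 measured myeloid markers 0 passed, with a median of 0.22. With all arrays kept, on course means of SKMM1, 13 of 14 B cell markers and 4 of 8 plasma cell markers were below 0. So were 9 of 10 T and NK cell markers, 3 of 4 myeloid markers and 70.4% of all features. The medians in the same order were -0.36, -0.14, -0.44 and -0.61, against -0.60 for the members and -0.21 for all features. The markers' part in the members' values was not tested.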

How the data were processed

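The log2 ratios of 15246 probes on 40 arrays were deposited by the authors as already processed, 1 value per probe and array with 0 missing; no source used here gives the log base, background correction, normalisation or direction of the ratio, and depth or signal over background is unknown. Probes were named through the platform annotation, and 10169 had 1 symbol, 4 had several and 5073 were not listed. Probes of a gene were averaged, which with unnamed probes gave 9681 features. The time course was the replicate; day 1 and day 5 arrays without a usable repeat number were placed by neighbouring database numbers and entered no fit. Course means of days 2 to 4 (days 3 and 4 against lymphoma) went into limma 3.58.1 (lmFit, eBayes; R 4.3.3), with Benjamini-Hochberg adjustment over all features at 0.05. Fits without wide arrays used course means or single arrays with the course as a random block (duplicateCorrelation, 0.25 among myeloma courses and 0.40 with lymphoma). Nothing marks the courses as separate cultures beyond their labels, so p-values measure the spread between these samples, which may be technical. Dyes were never swapped, so any dye bias sits in each response and drops out of differences only. The fit was tested on simulated data. Alternatives were centring, scaling, wide arrays, turned signs, probe medians, robust variances and left-out courses.

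The members and gene lists were chosen with earlier results of these data known. The text names all 10 members, list genes that passed or had the smallest p, and the 5 genes most like the members; list genes named for SKMM1 alone were picked after their values were seen. Coordinates are those of RefSeq's promoter table (GRCh38.p14).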

Additional observations from a re-analysis of the deposited data

Results flagged for a closer look

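LYN in SKMM1 repeat 2 lay far from the other courses. Its mean over days 2 to 4 was -3.56, while the next lowest of the 8 myeloma courses was -0.29, and the gap was 0.64 of the whole range. Chance marks about 1 in 20 groups in this way. All arrays of that repeat were wide and its direction is not settled. Turned, its mean would be 3.56, against a highest of 1.54 in the other courses.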

How the results depend on the processing

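No paired analysis was possible because repeat numbers of different lines name separate cultures and the lymphoma courses carry none. In the myeloma response, 0 features passed with all arrays, whether as course means or as single arrays, and 0 as course means once the wide arrays were dropped. On single arrays without the wide ones 442 passed, and between 0 and 790 with 1 course left out, and 2 member probes passed beside 5.84% of all. In SKMM1 1130 passed there, between 184 and 1447 with 1 course left out, and 0 on course means, and in myeloma minus lymphoma and in lymphoma 1 each. With OCI-Ly7 as the lymphoma line 82 passed in the difference and 91 in lymphoma. With the sign of SKMM1 repeat 3 turned 1 passed in lymphoma. With all arrays, leaving out 1 myeloma course at a time gave 0 calls in each comparison, the change with day included. PRKCB in SKMM1, at 1.08, was 0.97 with scaled arrays, 1.14 on course means, -0.49 with repeat 3 turned and -0.078 with wide arrays kept, none of them past the threshold. With 1 course left out it was between 0.57 and 1.72, short of the threshold without SKMM1 repeat 3, H929 repeat 2 or KMS12 shCasp10-3. The fits for SKMM1 alone, the left-out courses without wide arrays or for the change with day, and the turned counts were chosen after seeing the data.

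The signs that turned in the next comparisons were of estimates short of a call. In the myeloma response without wide arrays, course means and single arrays gave 0.18 and 0.16 for SYK, 0.25 and 0.22 for LYN, 0.13 and 0.13 for BTK, 0.23 and 0.21 for PRKCB and 0.21 and 0.17 for PIK3CD, and course means gave 0.0033 for BLNK. With SKMM1 repeat 2 turned they were 0.042 for SYK, 0.50 for LYN, 0.053 for BTK, 0.045 for PLCG2, 0.064 for PRKCB and 0.22 for PIK3CD. Without 1 course LYN was between -0.66 and 0.20, the highest without SKMM1 repeat 2. In myeloma minus lymphoma without wide arrays, course means and single arrays gave 0.15 and 0.12 for SYK, 0.29 and 0.27 for BTK, 0.48 and 0.56 for INPP5D and 0.26 and 0.23 for PIK3CD. With repeat 2 turned they were 0.19 for SYK, 0.024 for BTK, 0.19 for INPP5D and 0.034 for PTPN6. Medians of probes gave 2.78e-05 for BTK, OCI-Ly19 alone 0.16 for PLCG2 and 0.81 for INPP5D. INPP5D was also 0.10 with medians subtracted, 0.10 with arrays scaled, 0.037 with repeat 3 turned, and between -0.097 and 0.065 without 1 course. The cause was not tested. Of the other values 176 single-gene alternatives and 155 with a course left out kept sign and side.

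Subtracting array medians moved the median of all features in the myeloma response to -0.18, against -0.27 as deposited, and scaling to -0.11; all 10 members stayed below 0 under both. The values rest on 8 courses of 3 lines and 2 of lymphoma, and signal over background is unknown.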
